A study of Homo sapiens with 8 samples.

Results

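CUTLL1 cells exposed to PKF118-310 were compared with CUTLL1 control cells over every gene with enough reads. CUTLL1 (spelled CUTTL1 in the labels) is a human line of T-cell acute lymphoblastic leukaemia (T-ALL), and PKF118-310 is a small molecule that keeps β-catenin from binding TCF/LEF transcription factors. Treated cells received PKF118-310 at 1 µM for 24 h and controls placebo. The labels do not state the dose and time, which were taken from the study's text. The cells of both groups were not transfected. Of the 57189 genes in the files, 13089 had enough reads in at least 1 of the 2 CUTLL1 libraries and were described here. The series also holds a control and a treated library of a further T-ALL line, TIB153, whose values are set beside those of CUTLL1 in places.

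In T cell precursors of the thymus, NOTCH1 and Wnt signaling through β-catenin and the TCF/LEF factors together drive the early T cell program, and T-ALL cells are stopped at stages of that program. Precursors at the cortical stage carry CD1 molecules, both CD4 and CD8, and the recombinase that joins antigen receptor segments. AP-1 and immediate early genes, by contrast, are switched on within a short time by mitogens and by many kinds of stress.

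Each group held 1 library sequenced in 2 lanes, which were summed, to totals of 7609427 counts in control and 7971771 counts in treated cells. A count table deposited for CUTLL1 held 2 control and 2 treated columns for 3809 genes. A column of each group (con1 and PKF2) differed from the summed lanes by a median of 0.0130 and 0.0130 on the log2 scale, where sampling noise alone would give 0.0593 and 0.0574, so these columns were taken as the lane libraries counted again. The other columns (con2 and PKF1) differed by 0.0659 and 0.0638 and were taken as separate libraries, which gives n = 2 per group for the listed genes. The labels do not say whether these came from separate cultures. The study's heatmap of TIB153 and CUTLL1 names 2 placebo-treated controls and 2 sets of treated cells. Its text describes separate cultures for its mouse lines, but was not found to say so for CUTLL1. The table lists only genes that passed the authors' own test on these columns, so a repeat among its genes is a description and not independent evidence. An exact permutation test of 2 against 2 libraries cannot go below p = 0.333, and no test was made.

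A gene was called higher or lower where its log2 ratio of treated over control was at least 2-fold and the 95% interval of that ratio, from counting error only, left out no change. By this rule 681 genes were called higher (5.2% of those measured) and 339 lower (2.59%), of which 174 and 78 differed at least 4-fold. The median of all genes was 0.00, and the 5th and 95th percentiles were −0.80 and 1.11. These calls compare 2 libraries and not the conditions. Of the genes called higher, 330 were in the count table, and all 330 were also higher in the separate pair of libraries, 269 of them at least 2-fold. Of the genes called lower, 190 were listed, and all 190 were lower in that pair, 163 at least 2-fold. By the scaling used here, both treated columns lay beyond both control columns in all 3809 listed genes, 1650 above and 2159 below. The same direction in both pairs was therefore fixed by the selection of the table and adds nothing about the called genes. The median ratios in the lane pair and the separate pair were 1.49 and 1.44 for the higher genes and −1.45 and −1.42 for the lower genes. The called genes that were not listed had few reads, with medians of 35 and 33 counts over both libraries against 181 and 165.5 for the listed ones.

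**Figure D1:**
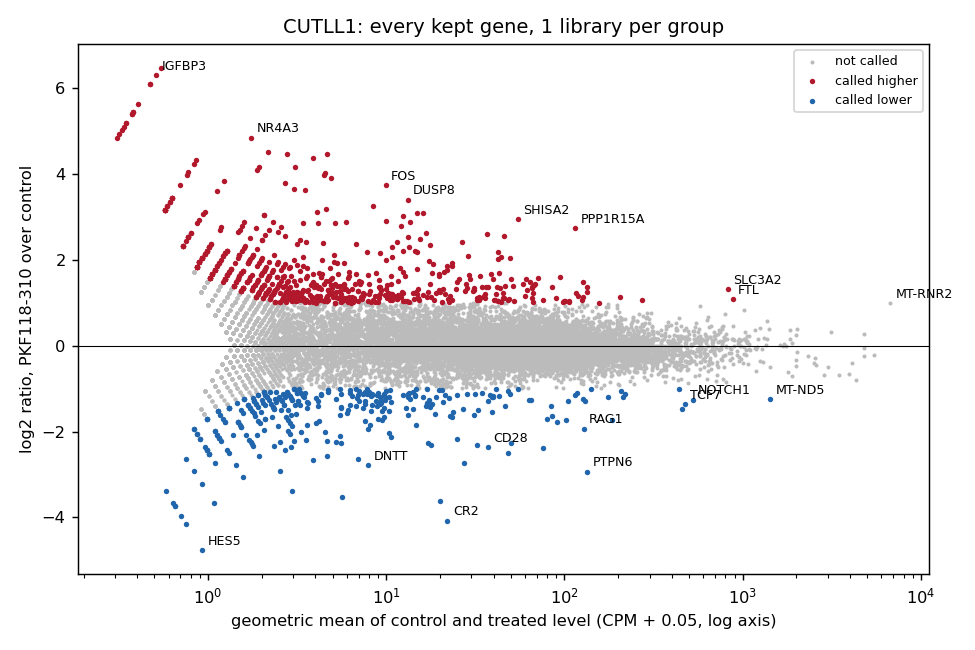
Each point is a gene, placed by its geometric mean level in both CUTLL1 libraries (x axis, CPM with a small offset, log scale) and by treated over control on the log2 scale (y axis); red and blue points were called higher (681) and lower (339). CR2 (−4.07) and PTPN6 (−2.94) lie far below 0, FOS (3.73) and DUSP8 (3.40) far above, and the spread widens toward low levels.

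**Figure D2:**
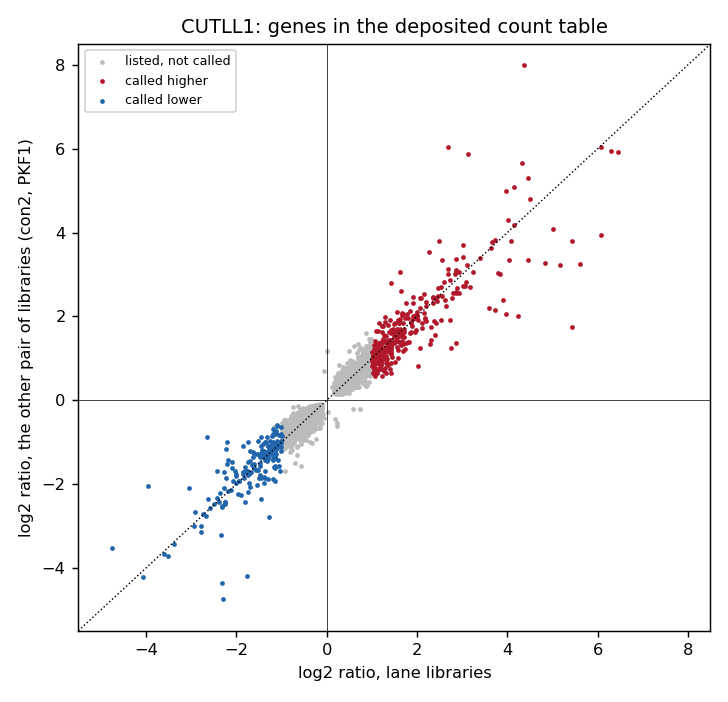
Each point is a gene of the count table, with its log2 ratio in the lane libraries (x axis) and in the separate pair con2 and PKF1 (y axis), and the dotted line marks equal ratios. All 330 red and all 190 blue genes keep their side of 0 in the separate pair. In all 3809 listed genes both treated columns lie beyond both control columns, so the selection of the table fixes this.

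The genes with low ratios at higher read counts had varied roles. CR2, the receptor for complement fragment C3d, lay at 91.6 and 82.0 CPM (counts scaled to library size) in the control libraries and at 4.36 and 5.45 CPM after PKF118-310. The treated libraries lay far below both controls, and the lane libraries gave a log2 ratio of −4.07 (interval −4.57 to −3.64). PTPN6, the tyrosine phosphatase SHP-1, lay at 372 and 380 CPM in control and at 47.7 and 48.1 CPM in treated cells. Its ratio was −2.94 (−3.09 to −2.79) in the lane pair and −2.99 in the separate pair. The listed genes were selected on these columns, so the small spread within each group is a description only. CD28, the T cell co-stimulatory receptor, went from 85.0 and 89.0 CPM to 19.0 and 16.1 CPM, a ratio of −2.36 (−2.65 to −2.10). BEST3, a bestrophin chloride channel gene, lay at 71.0 and 68.7 CPM and then at 5.35 and 5.57 CPM. DOCK8 (−2.31), the kinase gene WNK2 (−2.39) and MTAP (−2.12), an enzyme of methionine salvage next to CDKN2A on chromosome 9, were among the other low genes. CDKN2A itself had 42 and 11 counts, and the interval of its ratio ran from −3.15 to −1.06.

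NOTCH receptors and targets leaned lower: of 20 measured members 10 were called lower and 1 higher, with a median of −0.92. Of all measured genes 5.2% were called higher and 2.59% lower, which is the background for this and the following lists. NOTCH1 lay at 798 and 820 CPM in control and at 352 and 334 CPM in treated libraries, a ratio of −1.26 (−1.33 to −1.20). NOTCH3 went from 341 and 349 CPM to 102 and 102 CPM, and IL7R, the interleukin 7 receptor, from 186 and 195 CPM to 57.1 and 56.4 CPM. In each of these genes the treated libraries lay under the lower control, as in every listed gene that was lower. HES5, a NOTCH-induced repressor, had 37 and 1 counts in the lane libraries and lay at 4.80 and 3.49 CPM in control and 0.249 and 0.127 CPM in treated libraries. The other members called lower were CR2 (−4.07), described above, HES4 (−1.15), DTX1 (−1.13), NRARP (−1.10), PTCRA (−1.04) and CD300A (−2.28). HEY1, a relative of the HES repressors, was the member called higher, from 12 to 27 counts, and HES1 lay at 0.68.

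Genes of the cortical thymocyte stage showed the same lean, with 9 of 20 members called lower, none higher and a median of −0.85. RAG1, the recombinase subunit that cuts antigen receptor genes, lay at 251 and 255 CPM in control and at 67.3 and 66.5 CPM in treated cells, with a ratio of −1.94 (−2.08 to −1.80). DNTT, the terminal transferase that adds bases at the joins, went from 19.9 and 19.1 CPM to 2.12 and 2.91 CPM (−2.79, interval −3.50 to −2.19). CD1E lay at 116 and 116 CPM and then at 20.9 and 19.9 CPM, CD1B at −1.77 and CD1A at −1.05. RAG2 was at −0.75, an uncertain value because 26.0% of its exon sequence overlaps other genes. SATB1 (0.04) and ARPP21 (0.04), which also mark this stage, stayed within counting error. Of the 12 measured V(D)J recombination genes only DNTT and RAG1 were called. The lists share members: of the 9 cortical thymocyte genes called lower, CD4, CD8B, DNTT, PTCRA and RAG1 also count among the NOTCH, co-receptor or V(D)J genes, and these 4 lists together held 21 different genes called lower.

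Of the 14 measured CD3 and co-receptor genes 6 were called lower and none higher, with a median of −0.69. CD4 lay at 144 and 134 CPM in control and at 40.6 and 43.4 CPM in treated libraries, and CD8B at 30.3 and 38.4 CPM and then 11.7 and 7.98 CPM. CD2, an adhesion receptor, was at −1.75. The CD3 chains differed less, with CD3E at −0.07, CD3D at −0.28 and CD3G at −0.55. Among T cell receptor signaling genes only PTPN6 was called, of 26 measured. Of 29 measured T cell receptor segments 11 were called lower and none higher, with a median of −0.67. The constant segments TRAC (−0.98), TRBC1 (−0.85) and TRBC2 (−0.15) were not called. Those called lower included TRAV9-2, at 17.6 and 20.4 CPM and then 1.49 and 1.39 CPM, TRBV7-2 (−2.58), TRGC1 (−2.64) and TRBV6-6 (−1.19). Segments of one family are alike in sequence, so reads may be split among them.

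**Figure D3:**
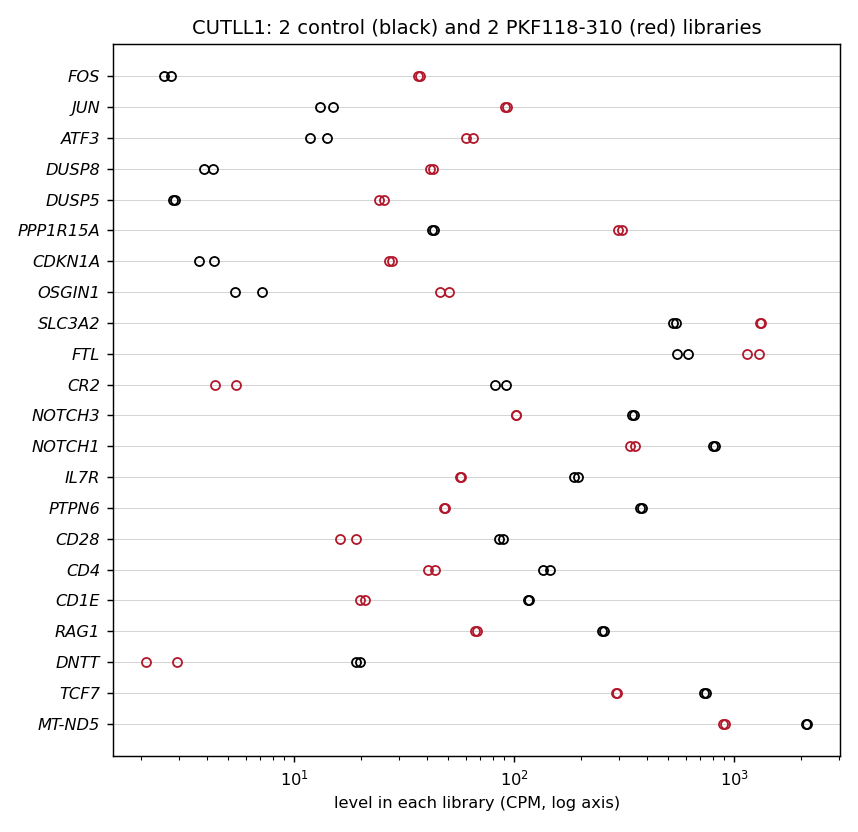
CPM (log axis) of 22 genes in the 2 control libraries (black) and the 2 PKF118-310 libraries (red), from the count table scaled to the summed lanes. For each gene the red points lie together and apart from the black points, as for CR2 (91.6 and 82.0 against 4.36 and 5.45 CPM). All 3809 listed genes are apart by this scaling, so only the distance is particular to a gene.

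TCF7, a TCF/LEF factor and partner of β-catenin, lay at 742 and 723 CPM in control and at 289 and 292 CPM in treated cells, a ratio of −1.36 (−1.43 to −1.29). Over the 23 measured Wnt genes 3 were called higher and 1 lower, with a median of 0.25. NKD1, a feedback inhibitor of Wnt signaling, had 0 and 36 counts in the lane libraries, at least 11.1-fold higher against a limit of 3 counts, and lay at 4.36 and 4.56 CPM in the treated libraries. AXIN2, a widely used Wnt readout, went from 45 to 99 counts (1.02, interval 0.50 to 1.57) with 25.2% of its exon sequence overlapping other genes. BCL9L, a co-activator of β-catenin, was at 1.09. CTNNB1, which encodes β-catenin, was at 0.35 (0.24 to 0.46), and LEF1 at 0.10 (0.06 to 0.15). Beyond counting error 14 of the Wnt genes were higher and 4 lower, where 24.1% of all measured genes were higher and 24.5% lower. The lower ones were TCF7, MYC (−0.22), APCDD1 (−0.80, interval −1.14 to −0.47) and NKD2 (−0.55, interval −0.69 to −0.41). Of the 23 measured sterol synthesis genes none was called, and the median was −0.03, with STARD4, a sterol carrier, highest at 0.60.

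Among the genes with the largest ratios, SHISA2, an inhibitor of Wnt and FGF receptor maturation, lay at 19.5 and 17.8 CPM in control and at 148 and 152 CPM in treated libraries (2.94, interval 2.70 to 3.20). IGFBP3, a binding protein of insulin-like growth factors, had 0 and 42 counts in the lane libraries, at least 12.9-fold higher. It lay at 0 CPM in both control libraries and at 4.11 and 5.32 CPM in the treated libraries.

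AP-1 subunits and immediate early genes leaned higher. Of 13 AP-1 genes 8 were called higher and none lower, with a median of 1.36, and of 27 immediate early genes 13 were called higher and none lower, with a median of 0.92. FOS lay at 2.74 and 2.55 CPM in control and at 37.2 and 36.4 CPM in treated libraries, a ratio of 3.73 (3.11 to 4.49). JUN went from 14.9 and 13.0 CPM to 92.1 and 90.8 CPM, and FOSB from 6.58 and 6.71 CPM to 32.0 and 31.0 CPM. The treated libraries lay above both controls in all 3 genes, as in every listed gene that was higher. JUND (0.34) differed less and BATF (−0.08) stayed within counting error. The nuclear receptor gene NR4A3 lay at 0.274 and 0.671 CPM and then at 7.09 and 9.63 CPM, with ratios of 4.84 in the lane pair and 3.28 in the separate pair. RHOB, a small GTPase, was at 4.15 and 5.08 in these pairs.

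Of 16 MAP kinase phosphatases and feedback genes 5 were called higher and none lower, with a median of 0.41. DUSP8, which acts on stress kinases, lay at 4.25 and 3.89 CPM in control and at 41.3 and 42.7 CPM in treated libraries, and DUSP5, which acts on ERK, at 2.88 and 2.82 CPM and then 24.1 and 25.5 CPM. DUSP4 (2.69, from 4 to 31 counts), DUSP10 (2.06) and SPRY4 (1.87, from 12 to 49 counts) were called as well. DUSP2, a further member, was at −0.35.

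Genes of the integrated stress response were higher in part. Of 26 members 7 were called higher and none lower, with a median of 0.51. PPP1R15A, which returns eIF2α to its active form, lay at 43.1 and 42.1 CPM in control and at 308 and 294 CPM in treated libraries (2.73, interval 2.56 to 2.90). DDIT3, which encodes CHOP, was at 1.84 but overlaps other genes over 39.6% of its exon sequence, and TRIB3 was at 1.49. ATF4 mRNA was at 0.21 (0.15 to 0.27). SLC3A2, the shared heavy chain of several amino acid exchangers, had among the largest gains in level, from 528 and 544 CPM to 1314 and 1312 CPM. Its light chain SLC7A11 was at 1.36 and SLC7A5 at 0.42. Of 20 tRNA synthetase genes none was called, and SARS (0.58) and FARSB (−0.68) were the extremes.

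Oxidative stress genes were mixed, with 4 of 25 called higher, none lower and a median of 0.32. OSGIN1 lay at 5.35 and 7.11 CPM in control and at 50.4 and 46.1 CPM in treated libraries, and the ferritin light chain FTL at 546 and 616 CPM and then 1296 and 1140 CPM. NQO1, a quinone reductase, was at 1.07 and TXNRD1 at 0.73. CDKN1A, which encodes the cell cycle inhibitor p21, went from 3.70 and 4.29 CPM to 27.8 and 27.0 CPM, a ratio of 2.89. No apoptosis regulator of 26 was called. PMAIP1, which encodes the BH3-only protein NOXA, was at 0.91 and BAX at −0.05.

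Of 23 heat shock and chaperone genes 3 were called higher, none lower, and the median was −0.31. HSPA6, a stress-induced HSP70, had 0 and 19 counts in the lane libraries, at least 5.86-fold higher, and 4.36 and 3.04 CPM in the treated libraries against 0 and 0.403 CPM in control. HSPA1B lay at 4.39 and 3.89 CPM and then at 22.9 and 17.5 CPM, but it has a near-identical copy in HSPA1A and overlaps other genes over 36.5% of its exon sequence. The abundant chaperones went the other way, with HSP90AA1 at −0.68, HSPD1 at −0.60 and HSPA8 at −0.41. The heat shock letters (GAANNTTC, either strand) stood upstream of 8 of the 21 members with a promoter sequence. Of these 8, 2 were called higher, HSPA6 and HSPA1B. DNAJB4 (1.96), the other member called higher, did not hold the letters. Windows around the letters, in capitals, are shown for the HSP70 genes HSPA6 and HSPA1B, which were called higher, and for HSPA8, which was at −0.41. They are RefSeq sequence of build GRCh38.p14, from chr1:161524330-161524397, chr1:161524441-161524508 and chr6:31827603-31827670 on the plus strand and from chr11:123062329-123062386 and chr11:123062149-123062216 on the minus strand.
HSPA6, first window: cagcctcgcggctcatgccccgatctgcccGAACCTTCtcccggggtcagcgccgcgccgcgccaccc
HSPA6, second window: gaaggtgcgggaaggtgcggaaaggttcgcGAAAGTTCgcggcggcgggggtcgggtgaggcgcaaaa
HSPA1B: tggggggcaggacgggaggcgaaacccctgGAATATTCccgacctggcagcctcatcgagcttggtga
HSPA8, first window: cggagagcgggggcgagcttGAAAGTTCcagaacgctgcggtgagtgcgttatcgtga
HSPA8, second window: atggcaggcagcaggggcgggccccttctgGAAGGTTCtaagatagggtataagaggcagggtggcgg

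The same letters stood in the 250 bases upstream of 5.85% of all 27305 RefSeq promoters, 3.94% of those of the 9452 measured genes with a promoter there, 4.77% of those of higher genes and 3.86% of those of lower genes. The AP-1 letters (TGACTCA, either strand) stood in 2.21% of measured, 6.68% of higher (28 of 419) and 0.97% of lower (2 of 207) promoters, and in 4.16% of all. For the CRE letters (TGACGTCA) the shares of measured, higher and lower promoters were 3.03%, 3.34% and 1.93% (1.77% of all), and for the TCF/LEF letters (CTTTGAA or CTTTGTT) 4.61%, 6.92% and 6.76% (8.12% of all). The RBPJ letters (TGGGAA) stood in 19.1%, 15.5% and 20.8% (21.1% of all), and the E-box (CACGTG) in 9.25%, 7.64% and 10.1% (6.49% of all). For the antioxidant letters (TGACNNNGC), which can overlap those of AP-1, the shares were 12.3%, 12.9% and 12.1% (11.03% of all), and the ATF4 letters (TGATGCAA) stood in 0.30%, 0% and 0.48% (0.82% of all). A match to such short letters is a description of the window and not a site.

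**Figure D4:**
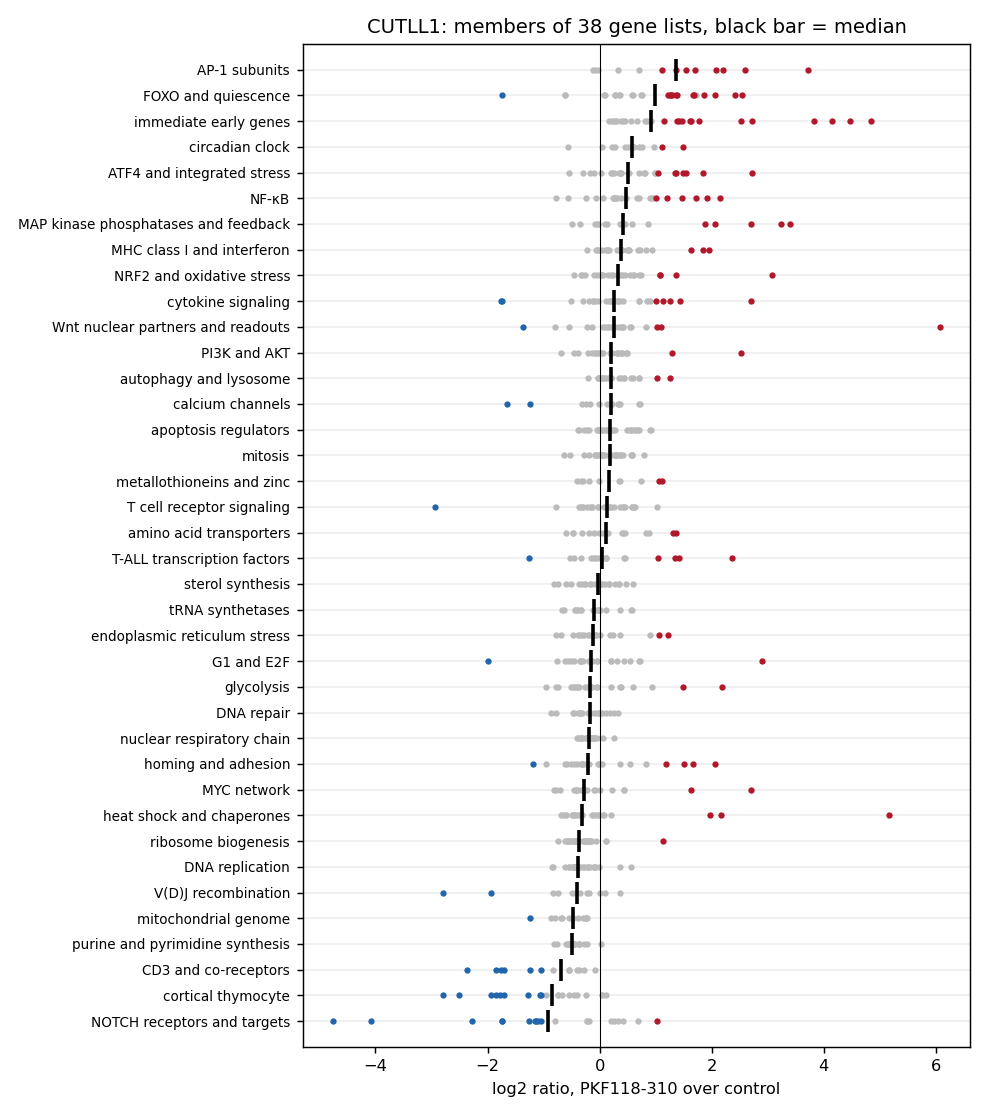
Each point is a measured member of a gene list, placed by treated over control in the lane libraries (x axis, log2 scale), red where called higher and blue where called lower, and a black bar marks the list's median. AP-1 (median 1.36) stands highest, and NOTCH (−0.92) and cortical thymocyte genes (−0.85) stand lowest.

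Other groups with a lean were those of FOXO and quiescence, NF-κB and the circadian clock. Of 26 FOXO and quiescence genes 12 were called higher and 1 lower, with a median of 0.99. The higher lists share members too. BTG1 also counts among the immediate early genes, and CCR7 and S1PR1 among the homing genes. PPP1R15A stands in the immediate early and integrated stress lists, and IER3 in the immediate early and NF-κB lists. IRS2, an insulin receptor substrate, lay at 11.7 and 10.2 CPM in control and at 55.9 and 61.3 CPM in treated cells, CCNG2 was at 1.69 and KLHL24 at 1.86, while IL7R, the lower member, was at −1.74. Of 23 NF-κB genes 6 were called higher, with a median of 0.47, among them RELB (1.91) and TNF (1.71), and RELA was at 0.26. Of 15 circadian clock genes the repressors NR1D2 (1.49) and NR1D1 (1.11) were called, and the median was 0.58. The lean of this list rests on its median, as only 2 members were called. The inhibitors of basic helix-loop-helix factors ID1 (1.42), ID2 (2.36) and ID3 (1.04), and RUNX3 (1.34), were the 4 called higher of 21 T-ALL transcription factors, where LMO1 (−1.27) was the one called lower. MXD1, a repressor that competes with MYC for MAX, was at 1.63, and MYCN went from 6 to 45 counts. The store-operated calcium channel gene ORAI2 lay at 147 and 149 CPM and then at 51.1 and 48.6 CPM, and the calcium release channel ITPR2 at −1.25.

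Of 22 homing and adhesion genes 4 were called higher and 1 lower, with a median of −0.21. Over all measured genes the shares were 5.2% higher and 2.59% lower. CCR7, the chemokine receptor for entry into lymph nodes, lay at 1.65 and 2.42 CPM in control and at 5.85 and 7.09 CPM in treated libraries. S1PR1, which guides exit from the thymus, was at 1.66, and ITGAL, the integrin chain of LFA-1, was the lower member at −1.18. Of 26 cytokine signaling genes 5 were called higher and 2 lower (median 0.27). The lower ones were IL7R and IL2RB (−1.75, from 26 to 8 counts), an interleukin 2 receptor chain. Of 24 MHC class I and interferon genes IRF7 (1.95), ISG20 (1.85) and IFIT2 (1.64) were called higher (median 0.38). These 3 had few reads, going from 19 to 81, from 13 to 52 and from 5 to 18 counts. Of 23 glycolysis genes SLC2A3, a glucose transporter, went from 8.09 and 10.3 CPM to 39.7 and 32.7 CPM, and ALDOC was at 1.49, while the median was −0.17.

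Among the remaining lists, 2 of 21 endoplasmic reticulum stress genes were called higher, ERN1 (1.23), the sensor IRE1, and DNAJB9 (1.06), with a median of −0.12. The zinc genes MT2A (1.11), a metallothionein, and SLC30A1 (1.07), a zinc exporter, were the 2 called of 10 (median 0.16). Of 24 autophagy and lysosome genes TFE3 (1.02) and GABARAPL1 (1.25) were called higher (median 0.20). In the PI3K and AKT list SGK1 (2.53) and PIK3IP1 (1.29, from 8 to 22 counts) were called higher of 24 (median 0.21). Of 24 G1 and E2F genes CDKN1A was called higher and CDKN2A lower (median −0.16). Of 20 MYC network genes MXD1 and MYCN were called higher (median −0.28), and of 23 DNA repair genes none was called (median −0.17). Of all measured genes 5.2% were called higher and 2.59% lower. The zinc genes, with 2 of 10, lay above that share, but each of these lists held at most 2 calls. No lean is read from so few calls.

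Several groups differed by small amounts with few or no calls. Of 30 DNA replication genes 24 were lower beyond counting error and none was called, with a median of −0.38, and MCM6 (−0.85) and POLA1 (−0.83) were lowest. Of 30 ribosome biogenesis genes 25 were lower beyond counting error (median −0.37), and of 18 purine and pyrimidine synthesis genes 17 (median −0.48). Over all genes 24.1% were higher and 24.5% lower beyond counting error. Of 30 mitosis genes 16 were higher and 5 lower beyond counting error, with a median of 0.18, and MKI67 lay at 1124 and 1087 CPM in control and at 1679 and 1673 CPM in treated libraries.

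All 13 protein-coding genes of the mitochondrial genome were lower beyond counting error (median −0.47), and 1 was called. MT-ND5, a subunit of complex I, lay at 2144 and 2111 CPM in control and at 889 and 908 CPM in treated libraries. The mitochondrial ribosomal RNAs went the other way, with MT-RNR2 from 4448 and 4784 CPM to 9439 and 8828 CPM and MT-RNR1 at 0.83. Among the nuclear genes of the respiratory chain the median was −0.18 and none of 25 was called.

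Other cell types were hardly seen. Of the defining markers the files hold no count in either library for 3 of 9 B lineage, 5 of 10 myeloid, 3 of 8 NK, 6 of 8 erythroid and 3 of 10 stromal and epithelial genes. The summed level of these lists was 11.3 and 15.3 CPM for B lineage, 3.34 and 1.85 for myeloid, 3.74 and 8.27 for NK, 7.88 and 6.42 for erythroid and 53.9 and 46.5 for stromal and epithelial genes, control then treated. Most of the stromal and epithelial sum was PECAM1 (49.7 and 43.8 CPM), which also stands in the homing and adhesion list. The T lineage list summed to 4670 and 3324 CPM. In bulk RNA, fewer cells of a kind and less RNA per cell cannot be told apart.

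By gene type, 4.47% of 11328 protein-coding genes were called higher and 2.26% lower, against 14.4% and 5.83% of 360 lincRNAs and 10.7% and 3.06% of 458 antisense genes. Calls were commoner at low levels. Of the genes at a mean of up to 2 CPM 16.6% were called higher and 7.47% lower, and of those at over 500 CPM 0.80% and 1.61%. How the counting treated strand was not given in the sources used here, so reads of antisense genes and their partners cannot be told apart.

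Beside these ratios stood those of TIB153, in which 5.2% of the same measured genes were called higher and 1.99% lower. The calls shared by both lines were 247 higher genes, 36.3% of the 681 in CUTLL1 and 36.3% of the 680 in TIB153, and 40 lower genes, 11.8% of the 339 and 15.3% of the 261. The opposite call in TIB153 was made for 2 of the higher and 11 of the lower genes. The difference between the lines was not tested. RAG1 was at −1.94 in CUTLL1 and −1.72 in TIB153, SLC3A2 at 1.32 and 1.31, JUN at 2.60 and 3.10, and PTPN6 at −2.94 and −0.25. CD1E was at −2.51 and 0.02, NOTCH1 at −1.26 and −0.45, and TCF7 at −1.36 and −0.58.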

How the data were processed

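Each lane file deposited by the authors gives raw read counts by gene. Their CUTLL1 table gives raw counts in 4 columns, and its fold changes and p-values were not used. HISAT2, HTSeq, DESeq2 and build hg38 are named in the submitters' processing notes, without versions. Libraries were poly(T)-enriched and stranded. The lanes of a library were summed (chi-square per degree of freedom 1.0 and 1.01 between lanes). Genes with low counts were removed with edgeR 4.0.16 filterByExpr and counts scaled by TMM in R 4.3.3. Log2 ratios used a pseudocount of 0.5 counts, and 95% intervals came from the exact binomial (Clopper-Pearson) interval of the treated share of reads, which covers counting error only. A count of 0 was taken as a limit of 3 counts, 0.401 and 0.370 CPM. Starts in the files count from 0 and match GENCODE v29 for 99.6% of measured genes.

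Of the table's 3809 genes, 3758 matched by symbol and 45 more by Ensembl identifier, and 3789 were among the measured genes. Its columns were scaled by the median of ratios over listed genes. By that scaling both treated columns lay above both control columns in 1708 genes (44.8%) and below in 1720 (45.2%). Since that scaling shifts all ratios by 0.22 on the log2 scale against the lanes, printed CPM and ratios of the table used columns scaled to the summed lanes, an alternative chosen after seeing the data. Named genes were the 30 highest and 30 lowest ratios at 5 CPM or more, the 15 largest gains and losses in CPM, in each list the 6 or fewer genes farthest from 0 at 5 CPM or more, the members a list is named for, and called members of lists with 5 or fewer. Other list members named as contrasts were chosen after their values were seen. Members, lists and rule were chosen with earlier results of these data known. Scripts were tested on simulated counts. Some items are not reported here.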

Additional observations from a re-analysis of the deposited data

How the results depend on the processing

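Counts of calls depended most on the fold limit and on the level. At a 1.5-fold limit 1304 genes were higher and 886 lower, at a 3-fold limit 297 and 132, and among genes at 5 CPM or more 358 and 196. The other alternatives tried kept both counts within 1.5 times: scaling by library totals gave 743 and 309, DESeq2 size factors 673 and 340, no filter 799 and 428, the filter and TMM on all 4 libraries 638 and 293, a pseudocount of 2 counts 642 and 328, single lanes 526 and 279 or 505 and 283, and leaving out genes that share over 25% of their exonic bases, chosen after seeing the data, 615 and 322. The share of calls that were higher was 66.8%, and 59.5% at the 1.5-fold limit. Over 306 named genes, 2058 of 2120 values under an alternative stayed inside the gene's counting interval and 0 called values changed sign. Of the listed genes 3428 did not overlap between groups, 3809 when scaled to the lanes (1650 above and 2159 below) and 3748 unscaled. No paired analysis was possible because the ratios of the lane files, with 1 library per group, come from no test; the numbered columns of the count table, which hold genes selected on them, were not fitted with or without pairing. With 1 library per group in the lane files, depth limits the precision of genes with few reads.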
